A study of Mus musculus with 16 samples.

Results

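Glycolysis is represented here by 10 genes, taken by symbol from a count table of 48593 genes: the glucose transporter gene Slc2a1, the hexokinase genes Hk1 and Hk2, Gpi1, the phosphofructokinase genes Pfkp, Pfkl and Pfkm, Aldoa, Pkm and Ldha. Pfkp fell in germinal centre B cell libraries labelled KO for Crebbp (log2 fold change -0.49 ± 0.09, SE) and in those labelled homozygous for the Crebbp RH allele (-0.49 ± 0.09, SE), each against wild type libraries of its own cohort. None of the other 9 genes passed the test in either comparison. All 10 genes were found and all 10 passed the filter on low counts, which 16606 genes of the table passed.

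Glycolysis turns glucose into pyruvate in the cytosol and yields ATP and building blocks for growth. Glucose enters through transporters such as Slc2a1, hexokinases trap it as glucose-6-phosphate, and phosphofructokinase commits it to the pathway. Germinal centre B cells divide fast after meeting antigen, and Crebbp is an acetyltransferase that opens enhancers in these cells and is often mutated in human lymphomas that arise from them.

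The study compared splenic germinal centre B cells of mice with conditional changes of Crebbp. The cells were purified with a B cell isolation kit and then sorted as B220+, CD95+ and PNA+ after immunization of the mice with sheep red blood cells. Cells were taken 12 days after immunization by the growth protocol but 10 days by a tag of the samples. The groups were KO (labelled as homozygous loss of Crebbp, 3 libraries) with KO cohort WT (3 libraries), and RH HET (1 RH allele, 4 libraries) and RH HOMO (2 RH alleles, 3 libraries) with RH cohort WT (3 libraries). RH is a knock-in allele that changes an arginine of Crebbp to histidine. The series' title places the changes in germinal centre cells, but the labels used here name neither the Cre driver nor the Cre or floxed alleles that the wild type mice may carry. The labels used here give neither age nor strain, nor whether replicate libraries are separate mice, and the p-values therefore reflect spread among libraries, which may be technical.

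Library totals ran from 41362856 to 93040297 counts, and the 10 genes held 0.196% to 0.309% of each total. The germinal centre marker S1pr2 was high in every library (329 to 555 CPM, that is, counts relative to the scaled library total), and pan B markers summed to 3800 to 4999 CPM. The 6 T cell markers summed to 0.637 to 2.86 CPM and the 4 neutrophil markers to at most 0.530 CPM. 2 libraries stood apart on the first principal component, RH HOMO 2 at 77.1 and RH cohort WT 1 at 50.7, against -40.7 to 24.3 in the other 14. RH cohort WT 1 is titled as an RH cohort library but its batch tag names the KO cohort, and it had the highest mitochondrially encoded share of counts (7.34%). Crebbp itself had 123, 137 and 108 CPM in KO libraries and 131, 127 and 149 CPM in KO cohort WT libraries (log2 fold change -0.14 ± 0.17, SE; adjusted p = 0.826, edgeR), and a count over the whole gene does not show whether an exon was deleted.

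Read per kilobase of transcript, Pkm, Ldha and Aldoa had the highest levels of the 10 genes. Over all 16 libraries the mean level was 338 CPM per kb for Pkm, which makes pyruvate, 317 for Ldha, which turns pyruvate into lactate, and 283 for Aldoa, which splits fructose bisphosphate. Gpi1, which makes fructose-6-phosphate, averaged 152 CPM per kb. Pfkp came next at 48.1 CPM per kb, then Pfkl at 17.4, Hk1 at 14.0, Slc2a1 at 9.04, Hk2 at 4.57 and Pfkm at 2.53. The ranges of Pkm (261 to 451 CPM per kb), Ldha (218 to 452) and Aldoa (176 to 404) overlapped, so their order is not fixed by these libraries. Gene length here is the mean of the RefSeq-paired transcripts. With the full exon length of each gene, an alternative chosen after seeing the data, Ldha (163 CPM per kb) passed Pkm (151) and Slc2a1 (8.41) passed Hk1 (6.68), while Pfkp (12.2) still lay above Pfkl (9.71). Spread over the libraries was widest for Aldoa, whose highest library held 2.29 times the CPM of its lowest, and narrowest for Hk1 (1.45 times).

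**Figure D1:**
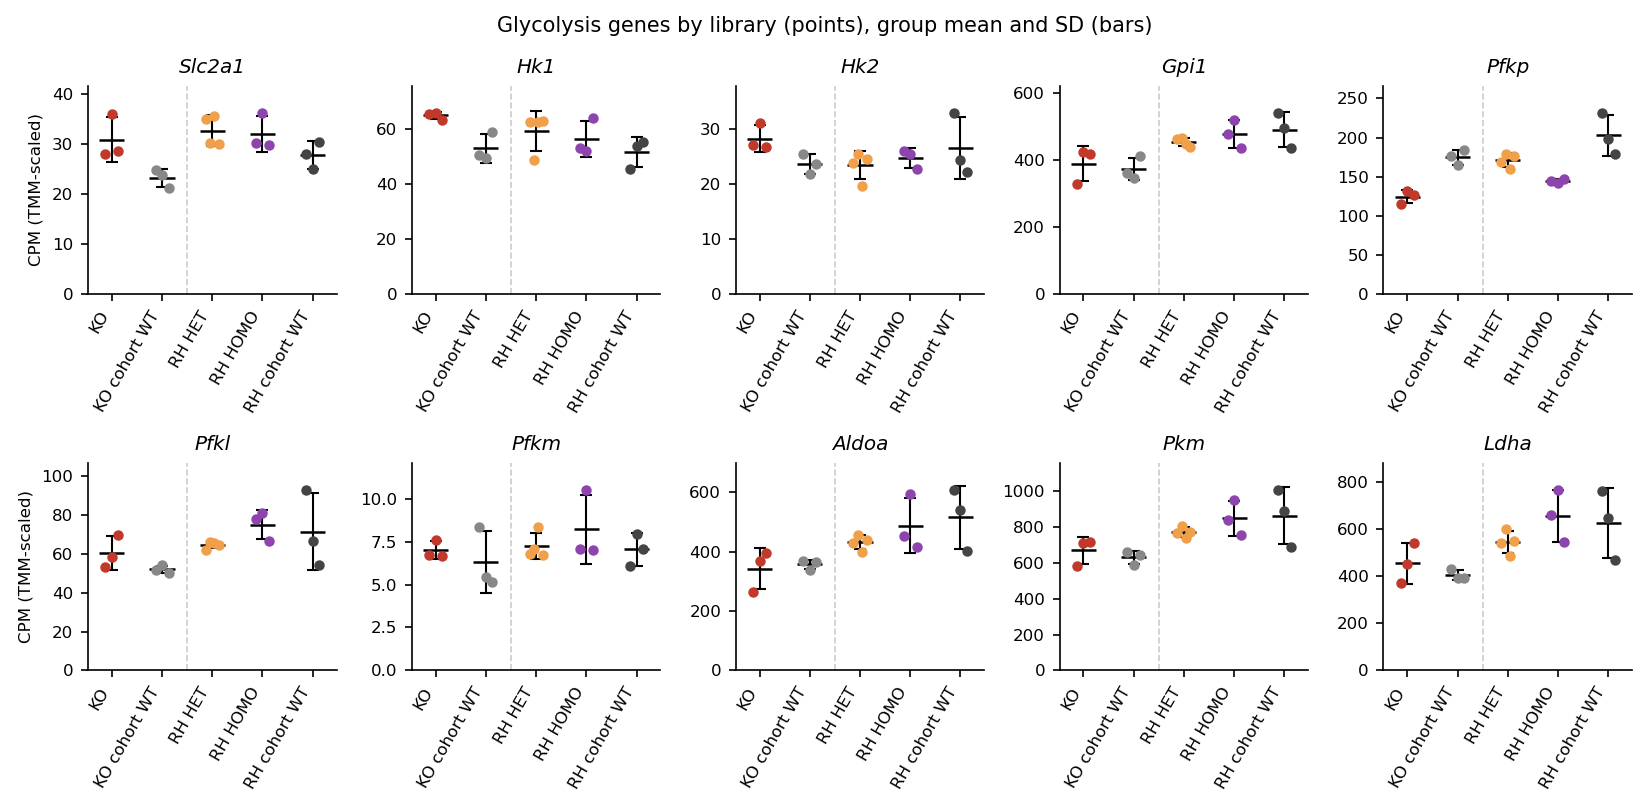
Level of each of the 10 genes in CPM (vertical axis, starting at 0) in every library, by group, with KO and KO cohort WT on the left of each panel and RH HET, RH HOMO and RH cohort WT on the right. Points are libraries and bars give the group mean and SD. Pfkp lies at 115 to 132 CPM in KO against 165 to 184 CPM in KO cohort WT, and at 142 to 147 CPM in RH HOMO against 179 to 231 CPM in RH cohort WT, without overlap.

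Pfkp encodes the platelet-type phosphofructokinase subunit, which is also made in many dividing cells. The gene lies on the minus strand at chr13:6579768-6648777 (GRCm38, GENCODE M21). Its promoter window, from 250 bases before the start to 50 after it, is shown because Pfkp was the gene that fell, beside that of Ldha, a gene known to be induced by hypoxia, which was not called in either mutant. The Pfkp window is chr13:6648722-6649021 on the minus strand and the Ldha window is chr7:46845554-46845853 on the plus strand, both from RefSeq on GRCm38.p6. Capitals mark every match, on either strand, to ACGTG (the hypoxia response core), CACGTG (an E-box, which contains the core on both strands) or TGACGTCA (the cAMP response element, to which CREB, a partner of Crebbp, binds).
Pfkp: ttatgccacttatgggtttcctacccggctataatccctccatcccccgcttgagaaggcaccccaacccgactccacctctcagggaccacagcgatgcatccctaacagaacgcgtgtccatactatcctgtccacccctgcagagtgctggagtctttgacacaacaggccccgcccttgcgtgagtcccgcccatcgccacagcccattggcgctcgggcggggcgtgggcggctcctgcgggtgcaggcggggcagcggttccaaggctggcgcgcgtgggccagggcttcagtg
Ldha: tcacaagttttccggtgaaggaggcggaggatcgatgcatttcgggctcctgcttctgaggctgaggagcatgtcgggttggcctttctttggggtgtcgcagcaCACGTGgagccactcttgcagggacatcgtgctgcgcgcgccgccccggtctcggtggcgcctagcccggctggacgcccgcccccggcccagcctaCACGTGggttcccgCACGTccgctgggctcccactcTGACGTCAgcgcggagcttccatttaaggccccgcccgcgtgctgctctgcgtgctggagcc
The Pfkp window holds none of these letters. The Ldha window holds 2 copies of the E-box, 1 cAMP response element and a further core. The other Ldha window in the RefSeq table, at a second start, holds none of them. Over the 18 windows of the 10 genes, 9 windows of 7 genes hold the core, and 19.6% of all 32851 mouse windows of that length do. Windows of the same gene can overlap, and the core at -126 in an Aldoa window is the same site as that at -202 in another. The 9 windows are therefore not 9 separate sites, and the 19.6% is a share of windows and not of genes. E-boxes occur in windows of 2 genes, Ldha and Pfkm (7.15% of all windows), and the cAMP response element in 1, Ldha (1.79% of all windows). The single Pfkl window and the single Gpi1 window, like that of Pfkp, hold none. A match is a description of letters and no match says only that these letters are not in the window.

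In the KO libraries, Pfkp was the only one of the 10 genes called. It had 115, 132 and 126 CPM in KO libraries, against 176, 165 and 184 CPM in KO cohort WT libraries. Every KO library lay below every wild type library of its cohort. The means were 125 ± 8.65 CPM in KO and 175 ± 9.63 CPM in KO cohort WT (SD, n = 3 each), a fold of 0.713 (log2 fold change -0.49 ± 0.09, SE; 95% interval -0.68 to -0.29; adjusted p = 0.0144, edgeR quasi-likelihood test). This 1 gene of 10 stands beside 0.729% of all tested genes called lower and 0.572% called higher in this comparison. The call held under all 13 other processing settings tried. They include the same fit read at the looser threshold of 0.1, which could not lose the call. They also include a fit that left out only RH cohort WT 1 and RH HOMO 2, which are in neither group. Leaving out single libraries of the 2 groups, however, gave adjusted p values from 0.0357 to 0.0914 (edgeR). Only the fit without KO 2 kept the call, while the log2 fold change stayed between -0.52 and -0.43. These fits called 18 to 40 of all tested genes higher in KO and 18 to 47 lower, against 95 higher and 121 lower with all libraries.

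Other measures moved with Pfkp in the KO libraries, and their part in its fall was not tested. The 8 germinal centre markers summed to 3042 to 3183 CPM in KO and 3340 to 3487 CPM in KO cohort WT, with Rgs13 called lower (-1.58 ± 0.23, SE; adjusted p = 0.00223, edgeR). Of the 8, 5 had negative log2 fold changes and 3 positive ones. The 3 were Bcl6 (mean 530 CPM in KO, 501 in KO cohort WT), S1pr2 (477 and 441) and Mef2b (295 and 248). Proliferation markers summed to 5354 to 6225 CPM in KO and 6302 to 7174 CPM in KO cohort WT, with none of 6 called. Mki67, the largest part of that sum, lay at 3036 to 3725 CPM in KO and 3875 to 4495 CPM in KO cohort WT. Of the 6 markers, 3 had positive and 3 negative log2 fold changes (median -0.02). The 5 plasma cell markers summed to 567 to 586 CPM in KO and 646 to 676 CPM in KO cohort WT, with none called. Jchain, the largest part of that sum, lay at 388 to 410 CPM in KO and 468 to 499.6 CPM in KO cohort WT. Log2 fold changes were positive for 3 of these 5 markers and negative for 2 (median 0.02). The 5 dendritic cell markers summed to 35.2 to 39.1 CPM in KO and 46.7 to 58.0 CPM in KO cohort WT, and Flt3, which holds most of that sum, was called lower (-0.51 ± 0.12, SE; adjusted p = 0.0473, edgeR). The more specific Zbtb46, Itgax, Xcr1 and Siglech lay between 0 and 2.36 CPM in every library. Platelet markers, relevant to a gene named for platelets, were near 0, with sums of 0.452 to 0.731 CPM in KO and 0.249 to 1.01 CPM in KO cohort WT over 5 genes. In bulk libraries fewer cells of one type and less RNA per cell cannot be told apart. Pitrm1, the neighbour of Pfkp, shares exon bases with Pfkp on the opposite strand, and no source used here gives the strand setting of the counts. Pitrm1 averaged 70.3 ± 2.21 CPM in KO and 64.5 ± 2.18 CPM in KO cohort WT (SD, n = 3 each; log2 fold change 0.12, adjusted p = 0.689, edgeR).

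In the RH cohort, Pfkp was lowest in RH HOMO libraries, at 144, 142 and 147 CPM. RH HET libraries had 169, 179, 159.6 and 177 CPM, and RH cohort WT libraries had 231, 198 and 179 CPM. RH HOMO lay below both other groups without overlap, while RH HET and wild type overlapped, since RH HET 2 exceeded RH cohort WT 3. The means were 144 ± 2.25 CPM in RH HOMO (SD, n = 3), 171 ± 8.92 CPM in RH HET (SD, n = 4) and 203 ± 26.5 CPM in RH cohort WT (SD, n = 3). Homozygous cells were lower than wild type by a fold of 0.711 (log2 fold change -0.49 ± 0.09, SE; 95% interval -0.69 to -0.30; adjusted p = 0.0109, edgeR). The 1 gene of 10 called lower stands beside 0.994% of all tested genes called lower and 0.578% called higher, and the 1 gene of 10 with RH HOMO wholly below wild type beside 8.03% of all tested genes, while none lay wholly above, as 7.39% of tested genes did. In heterozygous cells the difference was -0.25 ± 0.09 (SE; adjusted p = 0.560, edgeR; unadjusted p = 0.0109), and it was not called. Between RH HOMO and RH HET it was -0.25 ± 0.09 (SE; adjusted p = 0.354; unadjusted p = 0.0112), also not called, in a comparison where edgeR called 0% of genes at the adjusted threshold and 11.4% at an unadjusted p under 0.05. Pfkp lay wholly below RH HET in RH HOMO, as did 4.28% of tested genes, and Pfkl wholly above, as did 3.78%.

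The homozygous call rests in part on RH cohort WT 1, the library with the discordant batch tag and the highest Pfkp level of the series. Without it the log2 fold change was -0.39 and the adjusted p 0.0502 (edgeR), in a fit that called 38 of all tested genes higher and 116 lower, against 96 higher and 165 lower with all libraries. Placed in KO cohort WT as its tag reads, it left -0.40 (adjusted p = 0.193, edgeR). Without both libraries that stood apart it was -0.38 (adjusted p = 0.0579), and fitted on the 2 groups alone it was -0.50 (adjusted p = 0.221, edgeR, in a fit that called 0 genes). A term for the mitochondrial share gave -0.41 (adjusted p = 0.0674, edgeR). That share was 4.59%, 5.28% and 4.32% in RH HOMO, 3.93% to 5.84% in RH HET and 7.34%, 7.15% and 4.72% in RH cohort WT. Germinal centre markers summed to 2239 to 2751 CPM in RH HOMO and 2882 to 3247 CPM in RH cohort WT, with Mef2b called lower (-0.57 ± 0.11, SE; adjusted p = 0.0143, edgeR). Log2 fold changes were negative for 7 of these 8 markers and positive for 1, Fas. Fas lay wholly above wild type, at 112 to 121 CPM in RH HOMO and 86.7 to 107 CPM in RH cohort WT, while 2 of the 8 lay wholly below. The 6 T cell markers summed to 1.48 to 2.86 CPM in RH HOMO and 0.637 to 1.21 CPM in RH cohort WT, and 1 of them, Thy1, was called higher (2.16 ± 0.48, SE; adjusted p = 0.0282, edgeR). Thy1 held most of the RH HOMO sums, with a mean of 1.32 CPM in RH HOMO and 0.300 CPM in RH cohort WT. Only 3 of the 6 could be tested, 2 with positive log2 fold changes and 1 with a negative one. Cd4 averaged 0.144 CPM in RH HOMO and 0.282 CPM in RH cohort WT. The 7 macrophage markers summed to 18.5 to 28.9 CPM in RH HOMO and 15.6 to 22.6 CPM in RH cohort WT, and the 5 dendritic cell markers to 44.5 to 59.3 CPM in RH HOMO and 46.6 to 54.1 CPM in RH cohort WT. No marker of either list was called, but Adgre1, which encodes the macrophage antigen F4/80, lay at 2.56 to 2.90 CPM in RH HOMO and 0.734 to 1.56 CPM in RH cohort WT, without overlap (adjusted p = 0.0768, edgeR). Itgax, which encodes CD11c, lay at 1.64 to 2.36 CPM in RH HOMO and 0.461 to 0.583 CPM in RH cohort WT, also without overlap (adjusted p = 0.0776, edgeR). These were 1 of 6 tested macrophage and 1 of 4 tested dendritic cell markers wholly above wild type, beside 7.39% of all tested genes. Log2 fold changes were positive for 5 and negative for 1 of the 6, and positive for 2 and negative for 2 of the 4. Flt3, the largest part of the dendritic sum, averaged 46.5 CPM in RH HOMO and 48.6 CPM in RH cohort WT. Proliferation markers summed to 4446 to 5326 CPM in RH HOMO and 5495 to 5960 CPM in RH cohort WT. Mki67, the largest part of that sum, lay at 2039 to 2710 CPM in RH HOMO and 3074 to 3290 CPM in RH cohort WT. Of the 6 markers, 3 had positive and 3 negative log2 fold changes (median -0.06). Platelet markers summed to 0.687 to 1.34 CPM in RH HOMO and 0.822 to 1.52 CPM in RH cohort WT. The part of these in the fall of Pfkp was not tested.

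Ordered from low to high, mean Pfkp was lowest in KO, then RH HOMO, RH HET, KO cohort WT and RH cohort WT. KO and RH HOMO did not overlap but belong to different cohorts, and each of the next neighbours from RH HET upward overlapped. Set against their own wild types, the homozygous effect minus the KO effect was -0.004 ± 0.13 on the log2 scale (SE; 95% interval -0.28 to 0.27; adjusted p = 0.997, edgeR). None of the 10 genes was called in this test of the difference, where 0.241% of all genes were called, and none of them reached an unadjusted p under 0.05, which 9.53% of all genes did.

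**Figure D2:**
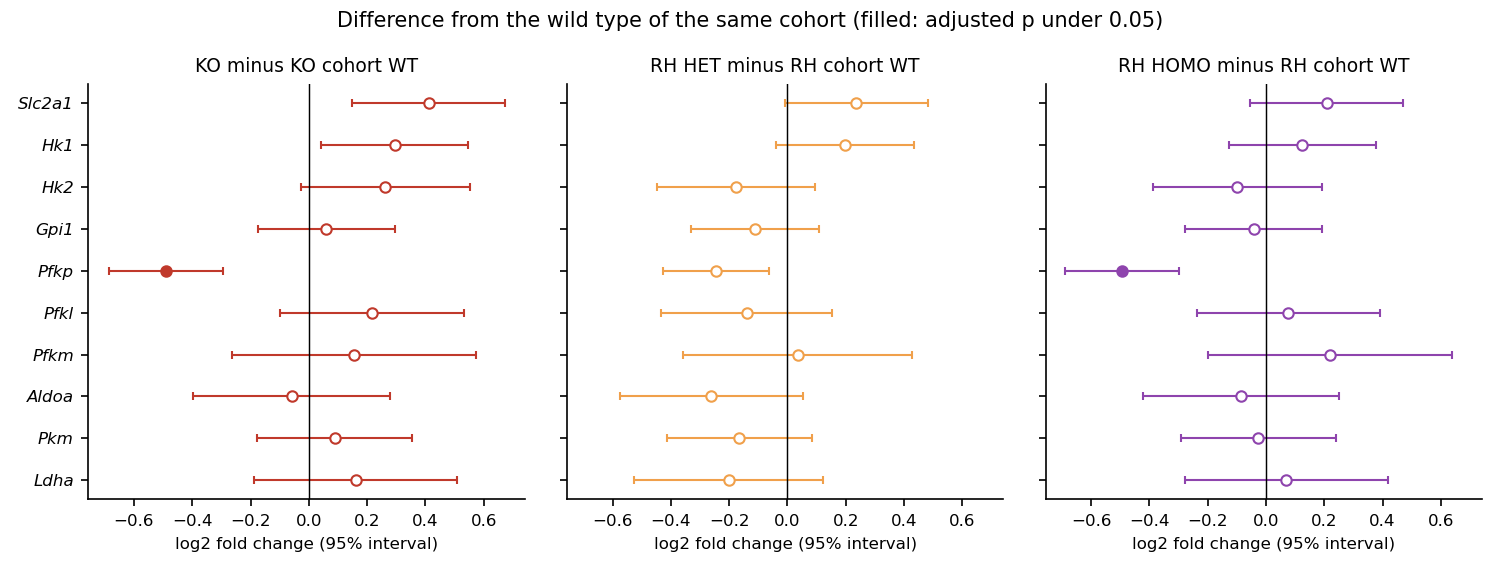
Log2 fold change of each of the 10 genes (horizontal axis) with its 95% interval, with panels for KO (against KO cohort WT), RH HET and RH HOMO (both against RH cohort WT) from left to right. Filled points passed an adjusted p of 0.05, which Pfkp did in KO (-0.49) and RH HOMO (-0.49), and all other points are open.

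Neither of the other phosphofructokinase genes was called in any comparison with wild type. Pfkl, the liver-type subunit, had 53.1, 58.4 and 70.0 CPM in KO libraries, against 51.9, 54.1 and 50.1 CPM in KO cohort WT (log2 fold change 0.22 ± 0.15, SE; adjusted p = 0.633, edgeR). It had 77.9, 81.1 and 66.6 CPM in RH HOMO and 93.2, 66.5 and 54.4 CPM in RH cohort WT (0.08 ± 0.15, SE; adjusted p = 0.889, edgeR). Both pairs of groups overlapped. Pfkm, the muscle-type subunit, was low throughout, at 6.68 to 7.62 CPM in KO, 5.14 to 8.37 CPM in KO cohort WT, 7.03 to 10.5 CPM in RH HOMO and 6.08 to 7.96 CPM in RH cohort WT. Pfkl lies at chr10:77986947-78010083 and Pfkm at chr15:98092589-98132451, where it shares exon bases with Senp1 on the opposite strand.

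Subunits of the 3 genes can join in one enzyme, so their relative transcript levels per kb were taken as well. Pfkp made up 67.0%, 67.9% and 63.7% of the summed phosphofructokinase level in KO, against 75.3%, 74.6% and 77.9% in KO cohort WT. It made up 64.3%, 62.1% and 67.9% in RH HOMO, against 71.4%, 73.8% and 75.4% in RH cohort WT, and 69.5% to 72.4% in RH HET. Both homozygous groups lay below their wild types without overlap. The summed level itself was 55.2 ± 4.23 CPM per kb in KO and 67.4 ± 2.38 in KO cohort WT, and 65.3 ± 1.91 in RH HOMO and 81.1 ± 12.9 in RH cohort WT (SD, n = 3 each). This sum depends on the length used. With full exon lengths it was 20.5 ± 1.72 in KO and 22.7 ± 0.690 in KO cohort WT (SD, n = 3 each). It was then 24.5 ± 1.44 in RH HOMO and 27.9 ± 4.76 in RH cohort WT (SD, n = 3 each), with overlap (23.0 to 25.9 and 23.6 to 33.0). The shares come from the same counts as the test of Pfkp and were given no test of their own. With full exon lengths the mean Pfkp share was 45.5% in KO and 57.4% in KO cohort WT, and 44.1% in RH HOMO and 54.4% in RH cohort WT, and Pfkl exceeded Pfkp in KO 3, RH HOMO 1 and RH HOMO 2.

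**Figure D3:**
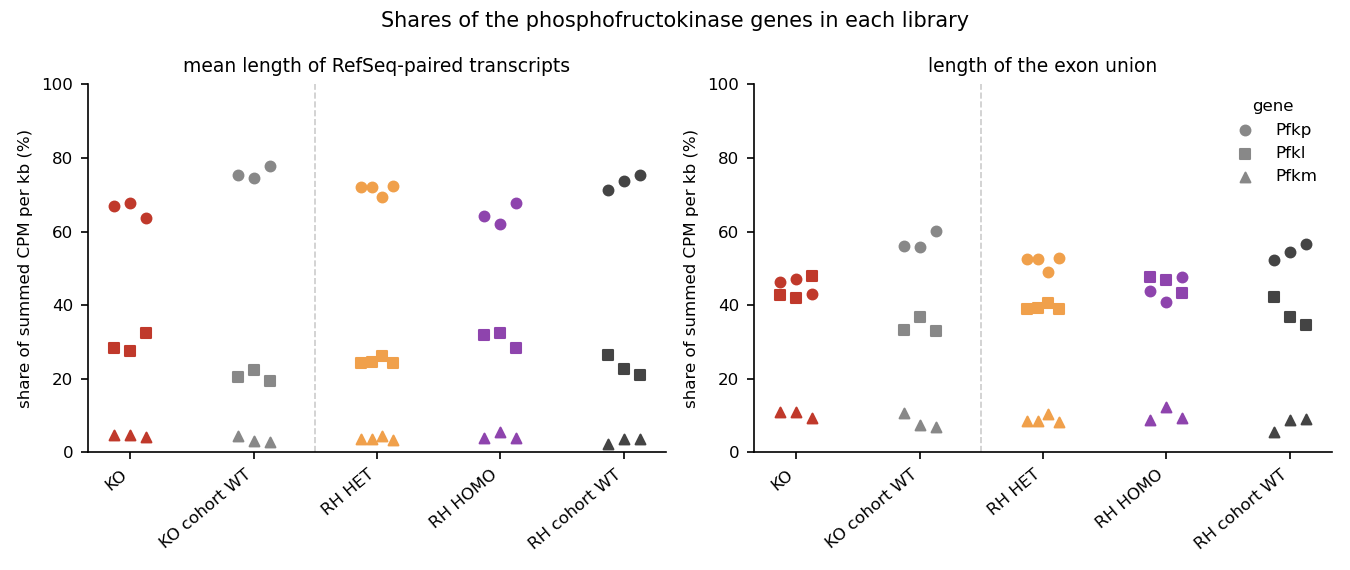
Share of Pfkp, Pfkl and Pfkm in the summed phosphofructokinase level per kb (vertical axis, 0 to 100%) in every library by group, with the RefSeq-paired transcript length in one panel and the full exon length in the other. The Pfkp share averages 66.2% in KO against 76.0% in KO cohort WT and 64.7% in RH HOMO against 73.5% in RH cohort WT with the RefSeq-paired length, and all shares of Pfkp are lower with the full exon length.

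No gene of glucose uptake or of the first step passed the test in KO, where all 3 had positive log2 fold changes. Slc2a1, which encodes the transporter GLUT1 and lies at chr4:119108711-119137983, had 27.9, 36.0 and 28.6 CPM in KO libraries, against 24.7, 23.7 and 21.2 CPM in KO cohort WT. Hk1, the broadly made hexokinase, had 65.4, 65.6 and 63.3 CPM in KO and 50.4, 49.2 and 58.8 CPM in KO cohort WT. Hk2, the inducible hexokinase, had 27.1, 31.1 and 26.7 CPM in KO and 25.4, 21.8 and 23.6 CPM in KO cohort WT. In all 3 genes every KO library lay above every wild type library of its cohort, as for 12.7% of all tested genes, beside 12.7% that lay below. The log2 fold changes were 0.41 ± 0.12 for Slc2a1 (SE; adjusted p = 0.135), 0.30 ± 0.12 for Hk1 (SE; adjusted p = 0.303) and 0.26 ± 0.14 for Hk2 (SE; adjusted p = 0.479, edgeR). The limma-voom test with quality weights called Slc2a1 (0.38, adjusted p = 0.0360) and Hk1 (0.31, adjusted p = 0.0478) higher in KO, in a fit that called 477 of all tested genes higher, against 95 with edgeR. In RH HOMO the groups overlapped for each of them, at 0.21 for Slc2a1 (adjusted p = 0.527), 0.12 for Hk1 (adjusted p = 0.732) and -0.10 for Hk2 (adjusted p = 0.831, edgeR). Antisense genes overlap exons of Slc2a1 (Gm12868) and Hk1 (Hk1os), whose reads cannot be told apart without strand. Hk1 lies at chr10:62268855-62379908 and Hk2 at chr6:82725025-82774454.

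Apart from phosphofructokinase, the middle and lower steps, read here from Gpi1, Aldoa, Pkm and Ldha, showed no called difference in any mutant group. Gpi1 averaged 389 ± 53.0 CPM in KO and 373 ± 33.8 CPM in KO cohort WT, and 476 ± 41.8 CPM in RH HOMO and 489.7 ± 52.8 CPM in RH cohort WT (SD, n = 3 each). Aldoa averaged 343 ± 68.1 CPM in KO and 357 ± 15.6 CPM in KO cohort WT, and 487 ± 93.4 CPM in RH HOMO and 516 ± 106 CPM in RH cohort WT (SD, n = 3 each). KO 1 was the lowest library of the series for both genes, and also for Pfkp, Pkm and Ldha. Pkm averaged 669.9 ± 74.2 CPM in KO and 630.2 ± 37.7 CPM in KO cohort WT, and 847 ± 96.8 CPM in RH HOMO and 863 ± 160.4 CPM in RH cohort WT (SD, n = 3 each). Ldha averaged 455 ± 85.4 CPM in KO and 407 ± 22.4 CPM in KO cohort WT, and 658 ± 111 CPM in RH HOMO and 627 ± 149.7 CPM in RH cohort WT (SD, n = 3 each). The counts do not separate the Pkm splice forms. Gpi1 lies at chr7:34201330-34230336 and Aldoa at chr7:126795234-126800751, and the annotation gives the symbol Aldoa to 2 gene IDs, which the table does not separate. The log2 fold changes of these 4 genes lay between -0.06 and 0.16 in KO and between -0.08 and 0.07 in RH HOMO, with all 95% intervals inside -0.42 to 0.51. Over all 10 genes the median log2 fold change was 0.16 in KO beside -0.002 over all tested genes, with 8 of 10 above 0, and 0.02 in RH HOMO beside 0.02, with 5 of 10 above 0.

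In RH HET cells none of the 10 genes was called, in a comparison where 0.0181% of all tested genes were called and 7.18% reached an unadjusted p under 0.05. Pfkp had the smallest p of the 10. Among the rest, Aldoa was at -0.26 ± 0.15, Ldha at -0.20 ± 0.15 and Pkm at -0.16 ± 0.12, and Slc2a1 at 0.24 ± 0.12 and Hk1 at 0.20 ± 0.11 (log2 fold changes, SE). Hk2 was at -0.18 ± 0.13, Gpi1 at -0.11 ± 0.10, Pfkl at -0.14 ± 0.14 and Pfkm at 0.04 ± 0.19, and no adjusted p of the 10 was under 0.560 (edgeR). The median over the 10 genes was -0.15, beside -0.01 over all tested genes, and 7 of 10 lay below 0. No gene of the 10 had groups without overlap, in a comparison where 2.97% of genes lay wholly above and 3.52% wholly below. RH HET and RH HOMO share the same 3 wild type libraries.

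Between the wild types of the 2 cohorts, Ldha and Pkm were called, both higher in RH cohort WT. These libraries also serve as the controls of the comparisons above. Ldha, at chr7:46841475-46855627, had 764, 649 and 468 CPM in RH cohort WT, against 432, 394 and 394 CPM in KO cohort WT. Pkm, at chr9:59656368-59679375, had 1008, 890.1 and 690.4 CPM in RH cohort WT, against 658, 587 and 646 CPM in KO cohort WT. Every RH cohort WT library lay above every KO cohort WT library for both genes. Ldha was higher by 0.62 ± 0.17 (SE; adjusted p = 0.0408) and Pkm by 0.45 ± 0.13 on the log2 scale (SE; adjusted p = 0.0470, edgeR), 2 of 10 genes beside 3.17% of all tested genes called higher. Gpi1 (0.39, adjusted p = 0.0503), Aldoa (0.53, adjusted p = 0.0579), Pfkl (0.45, adjusted p = 0.0755) and Pfkp (0.21, adjusted p = 0.158, edgeR) were not called. In 6 of the 10 genes RH cohort WT lay above KO cohort WT without overlap, beside 17.4% of all tested genes, and in none did it lie wholly below, beside 16.8%. The median over the 10 genes was 0.33, beside 0.01 over all tested genes, and 9 of 10 lay above 0. Opposite-strand Fam57b shares exon bases with Aldoa and was called higher (0.59, adjusted p = 0.0415, edgeR).

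The levels of these genes were uneven among the RH cohort WT libraries themselves. RH cohort WT 1 was the highest library of the series for Gpi1, Pfkp, Pfkl, Aldoa, Pkm and Hk2 and the lowest for Hk1. Without it Ldha was at 0.46 (adjusted p = 0.182) and Pkm at 0.33 (adjusted p = 0.205, edgeR), and no gene of the 10 was called. Leaving out any other single wild type library also ended every call, except RH cohort WT 3, whose absence raised the count to 6. With all libraries 527 of all tested genes were called higher and 313 lower. Those counts were 1119 and 749 without RH cohort WT 3, 183 and 77 without KO cohort WT 3, and 57 and 13 without RH cohort WT 1. They were 11 and 3 without RH cohort WT 2, 9 and 4 without KO cohort WT 1, and 1 and 2 without KO cohort WT 2. The mitochondrially encoded share was 4.72% to 7.34% in RH cohort WT and 3.90% to 4.47% in KO cohort WT. With a term for that share Ldha was at 0.24 (adjusted p = 0.777) and Pkm at 0.20 (adjusted p = 0.761, edgeR), in a fit that called 0 of 16606 genes in this comparison. Cohort, batch and any difference in handling cannot be told apart here.

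**Figure D4:**
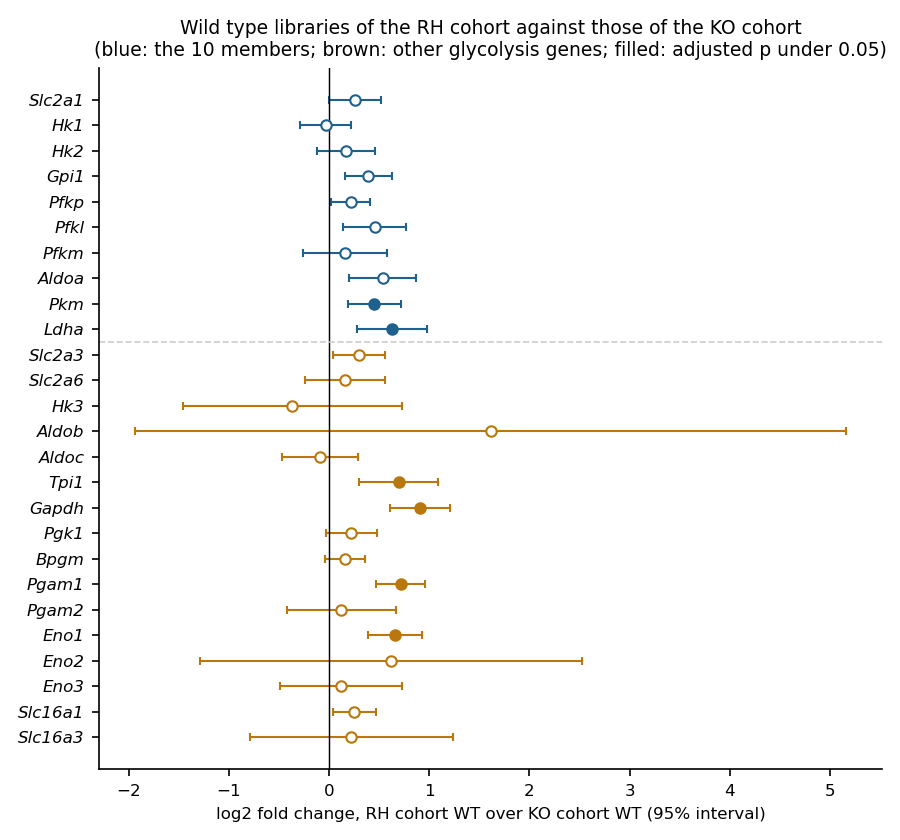
Log2 fold change of RH cohort WT over KO cohort WT (horizontal axis, with 95% interval) for the 10 genes in blue and the 16 tested genes of a list of other glycolysis genes in brown. Filled points passed an adjusted p of 0.05: Ldha and Pkm in blue, and Tpi1, Gapdh, Pgam1 and Eno1 in brown.

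The rest of the pathway was read from lists of 59 further genes, of which 51 could be tested. No gene of any of the 4 lists was called in KO, RH HET or RH HOMO. Of 16 tested other glycolysis genes, 9 lay above 0 in KO (median 0.05), 5 in RH HET (median -0.14) and 7 in RH HOMO (median -0.03). The smallest p in RH HOMO and RH HET was that of Slc16a1, which encodes the lactate exporter MCT1. It averaged 43.3 ± 0.235 CPM in RH HOMO (SD, n = 3), 44.1 ± 2.58 CPM in RH HET (SD, n = 4) and 54.5 ± 4.56 CPM in RH cohort WT (SD, n = 3). Its log2 fold change was -0.33 in RH HOMO (adjusted p = 0.125) and -0.30 in RH HET (adjusted p = 0.471, edgeR), with no overlap in either. In each comparison 2 of the 16 genes lay wholly below wild type and none wholly above. Of all tested genes 8.03% lay wholly below in RH HOMO and 3.52% in RH HET. In KO the smallest p was that of Eno2, an enolase best known from neurons, which was near the limit of detection at 0.399 to 1.12 CPM in KO and 0.0414 to 0.127 CPM in KO cohort WT (adjusted p = 0.0912, edgeR).

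Among 19 tested regulators the smallest p in KO and in RH HOMO was that of Egln1, which encodes the oxygen sensor PHD2 that marks HIF1A for destruction. Egln1 averaged 38.5 ± 7.85 CPM in KO and 27.7 ± 1.43 CPM in KO cohort WT (log2 fold change 0.47 ± 0.15, SE; adjusted p = 0.168, edgeR). It averaged 40.5 ± 3.07 CPM in RH HOMO and 28.1 ± 5.07 CPM in RH cohort WT (0.53 ± 0.15, SE; adjusted p = 0.1001, edgeR). Neither was called, and in both pairs the groups did not overlap. In KO 3 of the 19 regulators lay wholly above wild type and 2 wholly below, beside 12.7% of all tested genes each way. In RH HOMO 3 lay wholly above and 1 wholly below, beside 7.39% and 8.03%. Egln1 was named for its smallest p, so its separation is no further evidence. In RH HET it was Myc, a driver of growth genes, at -0.33 (adjusted p = 0.689, edgeR). The medians of the regulators were 0.05 in KO, 0.06 in RH HET and -0.03 in RH HOMO.

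Of 9 tested HIF targets outside glycolysis, the smallest p was that of Ndrg1 in KO (-0.62, adjusted p = 0.473) and in RH HOMO (-0.96, adjusted p = 0.173), and of Kdm3a, a histone demethylase gene, in RH HET (0.38, adjusted p = 0.416, edgeR). Their medians were 0.02 in KO, 0.31 in RH HET and 0.09 in RH HOMO. The 7 pentose phosphate genes had medians of 0.06 in KO, -0.11 in RH HET and -0.04 in RH HOMO. Their smallest p values were those of Pgd in KO (0.15, adjusted p = 0.584), Tkt in RH HET (-0.19, adjusted p = 0.755) and Taldo1 in RH HOMO (0.14, adjusted p = 0.597, edgeR), which encode enzymes of the oxidative and sugar-exchange steps.

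Between the wild types, most of the other glycolysis genes also had positive differences. Of the 16 tested, 14 lay above 0 (median 0.24) and 4 were called higher in RH cohort WT, beside 3.17% of all tested genes called higher and a median of 0.01 over them. These and the further genes named in this comparison were chosen after their values were seen. They were Gapdh (0.91, adjusted p = 0.00871), Pgam1 (0.71, adjusted p = 0.00871), Tpi1 (0.70, adjusted p = 0.0417) and Eno1 (0.66, adjusted p = 0.0172, edgeR), enzymes of steps below that of Aldoa. Of the pentose phosphate genes Pgls (0.76, adjusted p = 0.0317), Tkt (0.49, adjusted p = 0.0355) and Taldo1 (0.36, adjusted p = 0.0408, edgeR) were called higher. Of the regulators, Egln2 was (0.49, adjusted p = 0.0317, edgeR), and no HIF target was. Several of these genes, Gapdh among them, have near-identical processed copies in the genome, and no source used here says how shared reads were counted.

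The genes closest to Pfkp in pattern came from outside the 10. Likeness was the root mean square difference in log2 CPM after centring each gene on its mean over the 16 libraries, among 10150 genes, and Pfkp itself varied with a root mean square of 0.250. The closest was Bin2, a membrane-curvature gene of blood cells, at 0.103, then Odc1, of polyamine synthesis, at 0.117, Xrcc1, of DNA repair, at 0.122, Gm20513 at 0.134 and Pdxk, a vitamin B6 kinase gene, at 0.135. Of the other 9 glycolysis genes the closest was Gpi1, at 0.237 (rank 1041), then Pkm at 0.256 (rank 1825) and Aldoa at 0.262 (rank 2087). A gene that did not vary at all would score 0.250, so these ranks do not show likeness to Pfkp. Bin2 averaged 74.5 ± 4.21 CPM in KO and 98.3 ± 1.05 CPM in KO cohort WT, and 85.0 ± 12.0 CPM in RH HOMO and 110.4 ± 3.61 CPM in RH cohort WT (SD, n = 3 each). Xrcc1 averaged 238 ± 6.26 CPM in KO and 301 ± 12.7 CPM in KO cohort WT, and 272 ± 39.9 CPM in RH HOMO and 383 ± 24.9 CPM in RH cohort WT (SD, n = 3 each). Since these genes were chosen for their likeness over the same libraries, their values are a description and no test is given.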

How the data were processed

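Unnormalized read counts of 16 mouse germinal centre B cell libraries, by gene symbol, form the deposited table. Per the submitters' processing notes the authors used CASAVA 1.8, HISAT2 and featureCounts with the mm10 build. Other versions and the strand setting were not given in the sources used here. Library preparation used a TruSeq RNA kit, per the labels' protocols. Sample titles gave the groups, as several tags hold values of other tags.

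Counts were tested with edgeR 4.0.16 in R 4.3.3 (quasi-likelihood test, TMM scaling, default expression filter, 5 group means over 16 libraries, Benjamini-Hochberg over 16606 genes, called at an adjusted p under 0.05). The fit was checked only on simulated counts with known changes, drawn from the spread that edgeR itself estimated. Such counts hold no libraries that stand apart, so the check does not bear on the single calls made here. SE is the log2 fold change over the square root of F. CPM uses TMM-scaled totals, and CPM per kb divides by the mean length of GENCODE M21 transcripts paired with RefSeq. Alternatives used DESeq2 1.42.0 and limma 3.58.1 (voom), other filters, scalings, samples and a mitochondrial term. Replicate pairs differed far beyond sampling noise (chi-square per degree of freedom 16.4 to 204.7), so none was taken as the same library sequenced again. This cannot tell separate mice from separate preparations of the same mouse. The genes, lists and marker lists were chosen with earlier results of these data known. All 10 genes are named. From each other list come the genes called in a mutant or, with none, the one with the smallest p. Of the likeness ranking the 5 closest are named.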

Additional observations from a re-analysis of the deposited data

Results flagged for a closer look

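Hk1 in RH HET 2 stood at 48.4 CPM, against 62.5, 62.5 and 62.9 CPM in the other RH HET libraries, a gap to the nearest library larger than Dixon's 95% critical value allows for 4 values. RH HET was the group large enough for this check, which was run on all 10 genes there, and chance gives such a value in about 1 in 20 groups. In RH cohort WT, Hk1 had 45.4, 53.8 and 55.3 CPM. RH HET 2 also had the highest mitochondrially encoded share of its group (5.84%), and the part of that share in the Hk1 value was not tested.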

How the results depend on the processing

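No paired analysis was possible because the titles carry no replicate numbers and the numbers used here only name libraries in accession order. Values below are log2 fold changes unless said otherwise, none of the reversed ones was called, and the cause was not tested. Leaving out single libraries moved the number of the 10 genes lower in KO between 0 and 1, lower in RH HOMO between 0 and 1, and called between the wild types between 0 and 6, beside 1, 1 and 2 with all libraries. The number lower in RH HOMO was 0 with RH cohort WT 1 placed in KO cohort WT, with the mitochondrial term, without RH cohort WT 1 and RH HOMO 2, and on the libraries compared alone. The number higher in KO was 2 with limma-voom. Between the wild types it was 5 at an adjusted p under 0.1, without a count filter, with DESeq2 and with limma-voom, 4 with a filter of 1 CPM in 3 libraries, and 0 with RH cohort WT 1 moved, with the mitochondrial term and without both libraries that stood apart. No setting moved the median of all genes by over 0.1, and no gene of the 10 was called between RH HOMO and RH HET under any.

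Signs turned as follows. In KO, moving RH cohort WT 1 gave Gpi1 -0.083, Pfkl -0.031, Pkm -0.10 and Ldha -0.12, and all 6 wild type libraries as control gave Gpi1 -0.15, Pfkl -0.027, Pkm -0.16 and Ldha -0.18. In RH HET, the mitochondrial term gave Hk1 -0.020, Pfkl 0.14, Pkm 0.040 and Ldha 0.11. There, moving RH cohort WT 1 gave Hk2 0.0062, Pfkl 0.10 and Pfkm -0.059, and dropping both libraries gave Hk2 0.015, Pfkl 0.11 and Pfkm -0.051. All 6 wild types gave Gpi1 0.072, Pfkl 0.071, Pkm 0.045 and Ldha 0.077, and limma-voom gave Pfkm -0.043. In RH HOMO, the mitochondrial term gave Hk1 -0.070, Hk2 0.053, Gpi1 0.035, Aldoa 0.13 and Pkm 0.16, and limma-voom gave Hk2 0.029 and Pfkm -0.056. Moving RH cohort WT 1 gave Hk2 0.073, Gpi1 0.019, Aldoa 0.035 and Pkm 0.086, and dropping both libraries gave Hk2 0.067, Pfkm -0.093 and Pkm 0.013. All 6 wild types gave Gpi1 0.14, Aldoa 0.16 and Pkm 0.18. The Pfkp effect in RH HOMO minus that in KO was 0.011 without a count filter and with limma-voom, 0.19 with RH cohort WT 1 moved, 0.075 with the mitochondrial term and 0.11 without both libraries.

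Without single libraries, Aldoa in KO ran from -0.16 to 0.10. In RH HET, Hk2 ran from -0.28 to 0.015, Pfkl from -0.29 to 0.11 and Pfkm from -0.051 to 0.14. In RH HOMO, Hk2 ran from -0.21 to 0.083, Gpi1 from -0.13 to 0.030, Pfkl from -0.091 to 0.31, Pfkm from -0.0026 to 0.32, Aldoa from -0.25 to 0.046, Pkm from -0.17 to 0.097 and Ldha from -0.11 to 0.23. The difference between the Pfkp effects ran from -0.099 to 0.093. Pfkm was the lowest of the 10 genes, at 5.14 to 10.5 CPM.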
